A study of Drosophila melanogaster with 13 samples.

Results

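Aminoacyl-tRNA synthetases are the enzymes that join an amino acid to its own tRNA, and 32 of the 17476 genes in the count tables code for a synthetase by their FlyBase symbol, an amino acid abbreviation followed by RS or by RS-m. The ending -m marks the 15 mitochondrial enzymes, and the other 17 genes are called cytoplasmic here. The symbol does not say whether a gene of the second kind also serves the mitochondria. Of the cytoplasmic genes, 3 lie on the X chromosome (*ArgRS*, *HisRS* and *LysRS*) and 14 on the autosomes. All 15 mitochondrial genes are autosomal. The genes are spread over the major chromosome arms, with 5 on 2L, 8 on 2R, 10 on 3L and 6 on 3R. All 32 passed the filter on low counts and were tested among 13975 genes. The symbols *alpha-PheRS* and *beta-PheRS*, for the subunits of the cytoplasmic phenylalanine enzyme, have another form and were kept apart as partners. Cytoplasmic *LeuRS* was not analysed here, because its identifier was not matched in the count tables.

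The charged tRNA carries its amino acid to the ribosome, so these enzymes set the accuracy of the step between the genetic code and the protein. They fall into a pair of unrelated families by the fold of the catalytic domain, class I (17 of these genes) and class II (14), while *GluProRS* codes for a fused enzyme with a class I part for glutamate and a class II part for proline. Mitochondria translate their own messages with tRNAs of their own, and most animals keep a separate nuclear gene for the mitochondrial enzyme of most amino acids. Among the symbols analysed 11 abbreviations occur with both endings, 6 with RS alone (Gln, GluPro, Gly, His, Lys and Thr) and 4 with RS-m alone (Glu, Leu, Phe and Pro), although *GluProRS*, *alpha-PheRS* and *beta-PheRS* also serve glutamate, proline and phenylalanine in the cytoplasm. Whether the genes with RS alone, among them the X-linked *HisRS* and *LysRS*, also supply the mitochondrial enzyme was not examined. In male flies the MSL complex raises transcription from the single X chromosome. The noncoding RNAs *roX1* and *roX2*, both coded on the X, are parts of this complex.

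Polyadenylated RNA of whole first instar male larvae was sequenced in 13 libraries. The *roX1 roX2* mutant (3 libraries) carries both mutant alleles, roX1[ex6] and roX2[9-4], with y[1] and w[1118] on its X chromosome. The *roX1* mutant (4 libraries) has roX1[ex6] in the same y[1], w[1118] background, and the *roX2* mutant (3 libraries) has roX2[9-4] with y[1] and, unlike the others in their labels, cho[2] and v[1] in place of w[1118]. They were compared with wildtype (3 libraries), which is y[1], w[1118], and the strains were not made isogenic. The study's methods add v[1] to the double mutant, whose mothers carried a balancer X chromosome. In all groups the mothers were crossed to males with a GFP-marked balancer X, and larvae without GFP were pooled as males. The methods call the libraries of a genotype biological replicates, each made from pooled larvae. Neither the labels nor the methods say what a shared replicate number marks.

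Between 45620194 and 83954893 counts fell on genes in a library. The *roX1* RNA was at most 1.54 TPM (counts scaled by the summed exon length of each gene and by the library's total) in the *roX1 roX2* mutant and 0.970 TPM in the *roX1* mutant, against 299 to 349 TPM in wildtype. The *roX2* RNA was at most 0.0587 TPM in the *roX1 roX2* mutant and 0.0512 TPM in the *roX2* mutant, against 22.3 to 32.1 TPM in wildtype. The first principal component of autosomal genes (46.0% of the variance) set 4 libraries (*roX1* mutant replicates 1 and 2, *roX2* mutant replicate 4 and wildtype replicate 1) apart from the other 9. A list of 48 cuticle genes (*Osi* and *Twdl* families) summed to 29593 and 21106 TPM in *roX1* mutant replicates 1 and 2, to 3064 and 2793 TPM in *roX1* mutant replicates 3 and 4, and to 4828 to 5805 TPM in wildtype. Muscle markers (6 genes) summed to 11599 to 15040.1 TPM in the *roX1 roX2* mutant, against 19359 to 23512 TPM in wildtype, and neuronal markers (4 genes) to 353 to 441 TPM in the *roX1 roX2* mutant, against 223 to 311 TPM in wildtype. Digestive proteases (5 genes) summed to 1529 to 3016 TPM in the *roX1 roX2* mutant and 1218 to 5038 TPM in wildtype, the highest value being that of wildtype replicate 1. Adult testis genes (5 genes, 1 of them at 0 in all libraries) summed to 36.3 TPM in *roX2* mutant replicate 3 and to at most 1.14 TPM elsewhere.

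As a group, the cytoplasmic synthetase genes had higher levels than the mitochondrial ones in wildtype larvae. Together the 17 cytoplasmic genes held 727 ± 33.7 TPM in wildtype (SD, n = 3), and the 15 mitochondrial genes held 186 ± 8.75 TPM in wildtype (SD, n = 3). The median over genes was 33.2 TPM for the cytoplasmic and 9.47 TPM for the mitochondrial group. *TyrRS*, which charges tyrosine tRNA, was first in wildtype and in each mutant by mean TPM. Its wildtype values were 80.7, 129 and 124 TPM in replicates 1, 3 and 4. Of the annotated genes with any counts in wildtype 94.0% lay below it by mean TPM. *LysRS*, for lysine, was next with 58.3, 87.9 and 77.2 TPM in wildtype. In both genes wildtype replicate 1 was the lowest library. *ThrRS* (70.5 ± 3.95 TPM), *SerRS* (64.3 ± 7.97 TPM) and *AsnRS* (48.8 ± 2.23 TPM) followed in wildtype (SD, n = 3). The lowest cytoplasmic genes were *CysRS*, at 23.2, 18.8 and 17.3 TPM, and *AspRS*, at 18.0, 15.4 and 14.1 TPM in wildtype. The other cytoplasmic genes (*HisRS*, *IleRS*, *GlyRS*, *AlaRS*, *GlnRS*, *ArgRS*, *GluProRS*, *TrpRS*, *ValRS* and *MetRS*) had wildtype means between 23.7 and 39.4 TPM.

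Among the mitochondrial genes *PheRS-m* was the highest, with 36.9, 41.6 and 40.3 TPM in wildtype, a level inside the cytoplasmic range. *TyrRS-m* came next with 19.9, 24.5 and 22.6 TPM, followed by *AspRS-m* and *LeuRS-m* with wildtype means of 19.9 and 15.6 TPM. At the low end were *MetRS-m*, with 3.77, 4.11 and 3.65 TPM, and *ValRS-m*, with 3.24, 3.54 and 3.45 TPM in wildtype. The remaining mitochondrial genes (*SerRS-m*, *AlaRS-m*, *TrpRS-m*, *CysRS-m*, *ProRS-m*, *ArgRS-m*, *AsnRS-m*, *IleRS-m* and *GluRS-m*) lay between 4.58 and 11.7 TPM. Most neighbours in the order did not differ beyond their spread: the wildtype libraries of 25 of the 31 neighbouring pairs overlapped. The 6 steps without overlap were *SerRS* over *AsnRS*, *AsnRS* over *PheRS-m*, *LeuRS-m* over *SerRS-m*, *TrpRS-m* over *CysRS-m*, *IleRS-m* over *GluRS-m* and *MetRS-m* over *ValRS-m*.

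**Figure D1:**
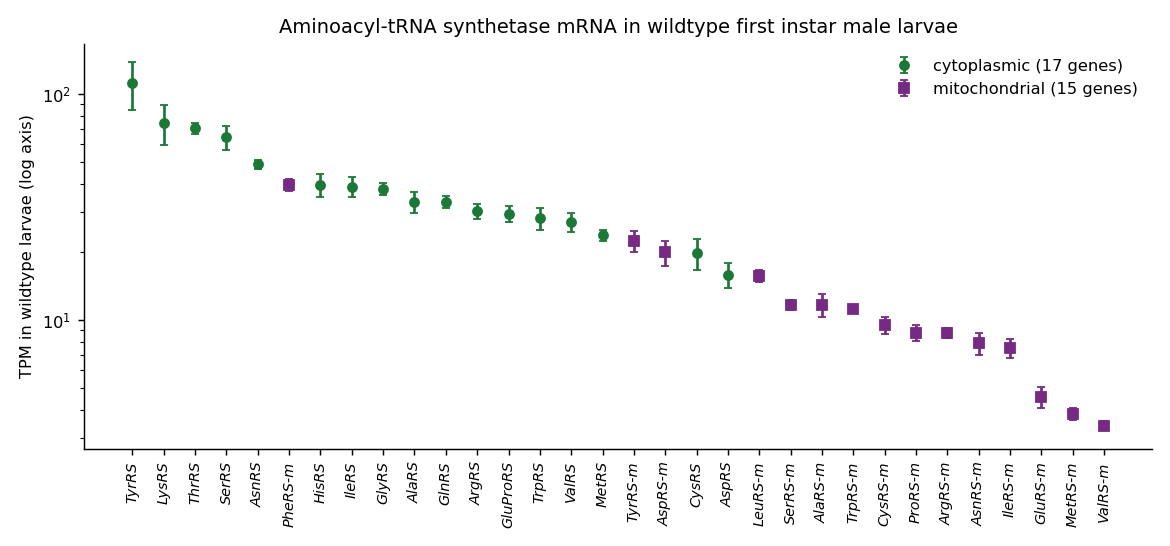
Mean TPM of each of the 32 synthetase genes in wildtype larvae (log axis, error bars SD over 3 libraries), in falling order, with cytoplasmic genes as circles and mitochondrial genes as squares. The cytoplasmic genes run between 15.8 and 111 TPM and the mitochondrial genes between 3.41 and 39.6 TPM.

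Reads over exons shared with another gene cannot be placed with certainty, since the library kit does not keep the strand of the RNA. The default of the counter, which the methods name, is to count by strand. Of the reads that aligned to a single place 0.957 to 2.91% per library fell on no gene. TPM divides by all exon bases of a gene, shared ones included, so reads lost there would lower it. Neither the strand setting used nor such a loss was tested. An antisense gene, asRNA:CR45141, covers 63.9% of the exon bases of *AspRS*, and asRNA:CR46092 covers 16.6% of those of *GluProRS*. A neighbour covers 14.3% of *CysRS-m*, 13.9% of *SerRS-m*, 11.8% of *ArgRS-m* and 8.91% of *HisRS*, while the other 26 genes share less than 6% of their exon bases with any gene. *GluRS-m* and *TyrRS* lie next to each other on 3L, 171 bases apart on the same strand. Their wildtype means were 4.58 and 111 TPM, near the opposite ends of the order.

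The first comparison asked what the loss of both *roX* RNAs did to these genes. In the *roX1 roX2* mutant, 3 of the 32 synthetase genes were called (adjusted p under 0.05), all of them lower than in wildtype, and they were the 3 X-linked genes *ArgRS*, *LysRS* and *HisRS*. None of the 29 autosomal genes was called by edgeR or by DESeq2, and 1 of them had an unadjusted p under 0.05 in edgeR. Of all genes tested 5.67% were called lower in this comparison and 9.08% in either direction (476 genes higher and 793 lower, or 290 higher and 1043 lower with TMM factors taken over the major autosome genes alone). Among the 2142 X genes 27.0% were called lower, and 1.77% of the 11494 genes on the major autosome arms. These backgrounds rest on single libraries too: without double mutant replicate 3 the test called 386 genes in all and 201 of 2128 X genes lower, and without double mutant replicate 2 it called 419 in all and 242 of 2131 X genes lower, against 1269 in all with every library. The median log2 fold change was -0.90 for the 3 X-linked synthetase genes, against -0.55 for all X genes, and 0.02 for the autosomal synthetase genes (-0.06 with the autosomal TMM factors), against 0.05 for all major autosome genes.

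*ArgRS* (FBgn0027093, X, 15841769 to 15844145, minus strand in BDGP6.54), which charges arginine tRNA, had 18.5, 20.6 and 21.5 CPM (counts scaled to the TMM-normalized library size) in the *roX1 roX2* mutant, against 42.6, 34.4 and 36.0 CPM in wildtype. Every double mutant library lay below every wildtype library. The difference was a log2 fold change of -0.90 (SE 0.15, adjusted p = 0.00582, edgeR), or 0.536 of the wildtype level. *LysRS* (FBgn0027084, X, 9606363 to 9608884, minus strand) had 49.2, 49.4 and 55.5 CPM in the *roX1 roX2* mutant, against 80.1, 108 and 104 CPM in wildtype. It also fell without overlap, with a log2 fold change of -0.92 (SE 0.16, adjusted p = 0.00616, edgeR), or 0.528 of the wildtype level. *HisRS* (FBgn0027087, X, 18515428 to 18520445, plus strand), for histidine, had 46.5, 46.6 and 48.9 CPM in the *roX1 roX2* mutant, against 59.6, 66.8 and 69.6 CPM in wildtype. Its fall was the smallest of the 3, with a log2 fold change of -0.46 (SE 0.12, adjusted p = 0.0381, edgeR), or 0.724 of the wildtype level. Against the X genes as a whole, 21.0% had a lower log2 fold change than *LysRS*, 22.4% than *ArgRS* and 57.6% than *HisRS*.

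**Figure D2:**
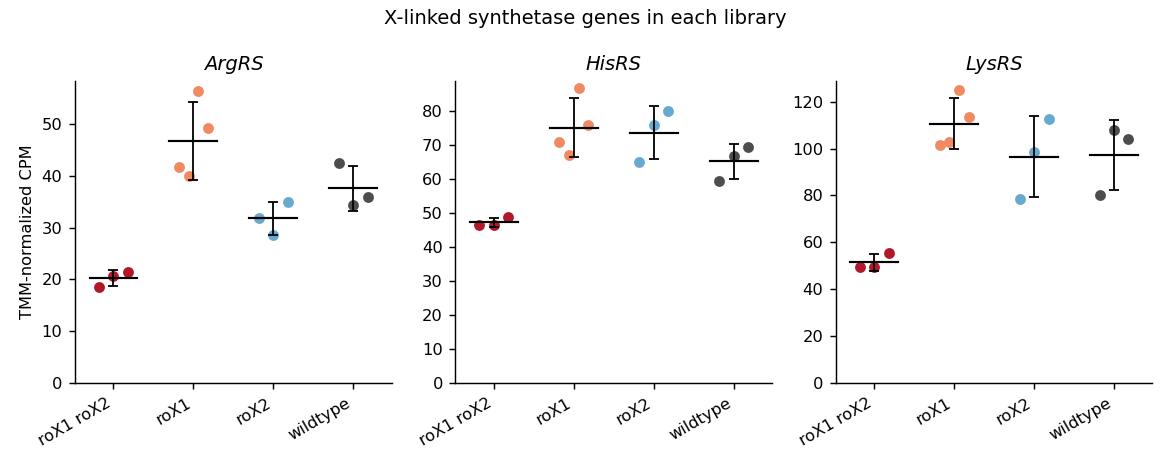
TMM-normalized CPM of *ArgRS*, *HisRS* and *LysRS* in each library (points) of the *roX1 roX2* mutant, the *roX1* mutant, the *roX2* mutant and wildtype, with the mean (line) and SD (bars). The 3 double mutant libraries lie below all other libraries in each panel, at most 21.5, 48.9 and 55.5 CPM.

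*ArgRS* and *LysRS* remained called in all 15 alternative settings. *HisRS* had adjusted p-values between 0.0104 and 0.159 over these settings (edgeR or DESeq2) and its call was lost in 6 of the 15, among them without wildtype replicate 3 (0.112), without wildtype replicate 4 (0.129) and without double mutant replicate 2 (0.159), 3 (0.146) or 4 (0.0810). Without the 4 libraries that the first component set apart, all 3 genes were called. In whole larvae, fewer cells of a type and less RNA per cell cannot be told apart, and the part that the lower muscle and higher neuronal marker sums of the *roX1 roX2* mutant have in these values was not tested.

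All *roX1 roX2* mutant libraries lay below all wildtype libraries in 5 of the 32 genes, the 3 X-linked ones, *GluProRS* and *MetRS-m*, and above them in *GlnRS* and *ValRS-m*. Of all genes tested 18.7% lay below and 18.5% above in this way. The autosomal synthetase genes had medians close to wildtype. The 14 cytoplasmic ones had log2 fold changes between -0.24 (*SerRS*) and 0.19 (*TyrRS*), with a median of 0.01. The 15 mitochondrial ones ranged between -0.20 (*TrpRS-m*) and 0.48 (*ValRS-m*), with a median of 0.02. Standard errors were 0.11 to 0.27 on the log2 scale, so small changes were not detectable. *ValRS-m*, for mitochondrial valine tRNA, had 9.04, 9.13 and 8.76 CPM in the *roX1 roX2* mutant, against 6.39, 6.24 and 6.66 CPM in wildtype. The groups did not overlap, but the difference did not pass the test, with a log2 fold change of 0.48 (SE 0.20, adjusted p = 0.164, edgeR). In the fit of the compared genotypes alone it was called as well, making 4 calls. Per library, the median over the cytoplasmic autosomal genes relative to the wildtype mean was -0.02, 0.01 and 0.07 in double mutant libraries, against 0.13, -0.06 and -0.07 in wildtype (log2 scale). For the X-linked synthetase genes it was -0.97, -0.86 and -0.80 in double mutant libraries, against -0.13, 0.04 and 0.09 in wildtype.

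**Figure D3:**
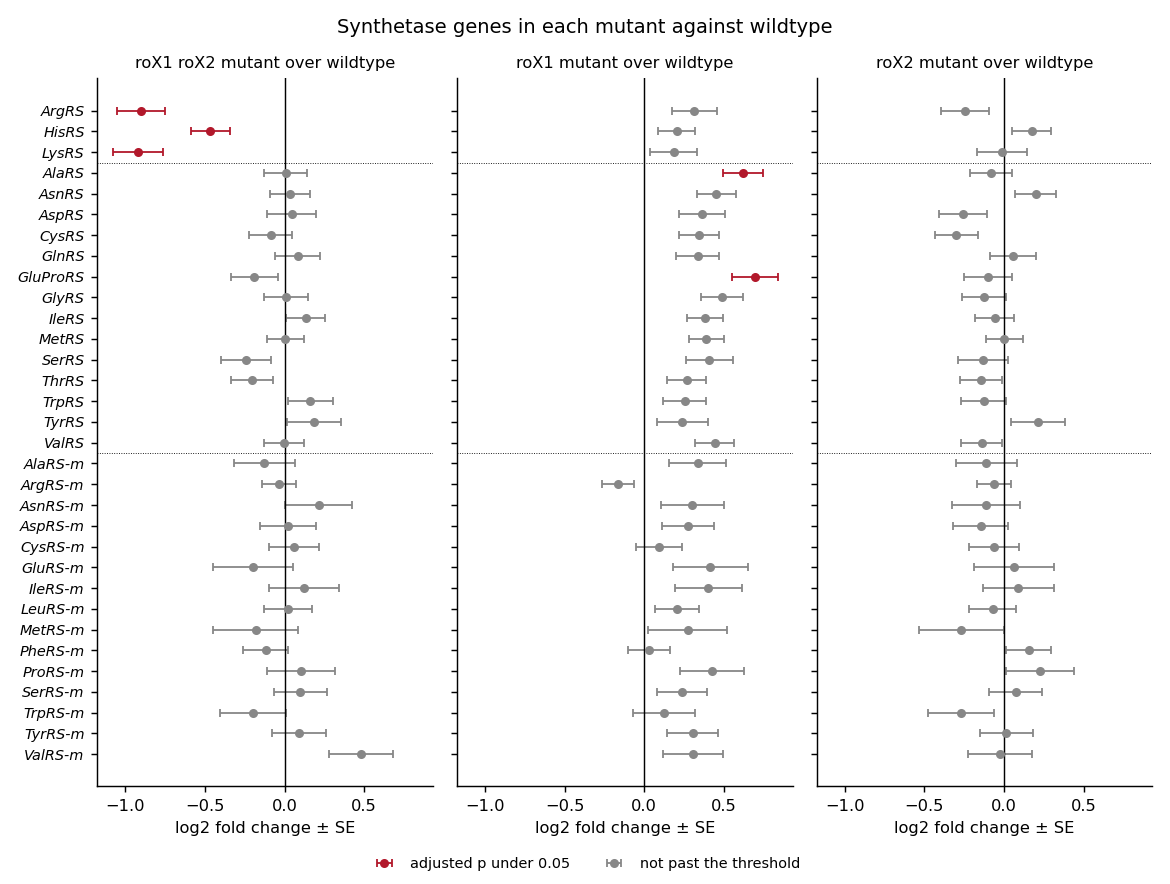
Log2 fold change (± SE, edgeR) of each synthetase gene in the *roX1 roX2* mutant, the *roX1* mutant and the *roX2* mutant against wildtype, with X-linked, cytoplasmic autosomal and mitochondrial genes separated by dotted lines and calls at an adjusted p under 0.05 in red. The 3 X-linked genes are called lower in the double mutant, *AlaRS* and *GluProRS* are called higher in the *roX1* mutant, and none is called in the *roX2* mutant.

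The share of X-linked genes in the cytoplasmic synthetase RNA was lower as well. *ArgRS*, *HisRS* and *LysRS* made up 12.5 ± 0.106% of the summed cytoplasmic TPM in the *roX1 roX2* mutant, 18.0 ± 0.405% in the *roX1* mutant, 19.9 ± 0.826% in that of *roX2* and 19.8 ± 1.81% in wildtype (SD over the 3 or 4 libraries of each genotype). These shares follow from the same 3 genes and are given as a description. In the order of mean TPM over the 32 genes, *LysRS* was at place 6 in the *roX1 roX2* mutant and place 2 in wildtype, *HisRS* at place 12 in the *roX1 roX2* mutant and 7 in wildtype, and *ArgRS* at place 19 in the *roX1 roX2* mutant and 12 in wildtype. The summed cytoplasmic level was 769 ± 31.6 TPM in the *roX1 roX2* mutant, 862 ± 80.8 TPM in the *roX1* mutant and 659.7 ± 158 TPM in the *roX2* mutant (SD over libraries), and only the *roX1* mutant libraries did not overlap those of wildtype. The *roX2* mutant sum holds a low library, replicate 2, at 489 TPM, against 801 and 688 TPM in replicates 3 and 4. The mitochondrial ribosomal RNA mt:lrRNA took 20.9% of its counts on genes and 7.41 to 12.6% in the other libraries, and the part of that in the sum was not tested. The summed mitochondrial level was 215 ± 10.8 TPM in the *roX1 roX2* mutant, 200.0 ± 40.2 TPM in the *roX1* mutant and 168 ± 19.4 TPM in the *roX2* mutant. The *roX1 roX2* mutant libraries did not overlap those of wildtype in this sum. TPM carries no TMM scaling, and the median TMM-normalized log2 fold change of the mitochondrial genes in the *roX1 roX2* mutant was 0.02.

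For the 11 abbreviations found with both endings, the ratio of TPM compares the RNA level of the cytoplasmic gene with that of the mitochondrial gene within a library. In wildtype it ran between 0.797 ± 0.0547 for aspartate, where the mitochondrial gene had the higher TPM, and 7.99 ± 0.862 for valine (SD, n = 3). An antisense gene shares 63.9% of the exon bases of *AspRS*, while *AspRS-m* shares 0.656% with a neighbour. The part of this overlap in the aspartate ratio was not tested. Of these 11 pairs only that of arginine has an X-linked gene, and its ratio of *ArgRS* to *ArgRS-m* was 1.91 ± 0.155 in the *roX1 roX2* mutant, against 3.47 ± 0.301 in wildtype. It was 4.83 ± 0.670 in the *roX1* mutant (SD, n = 4) and 3.06 ± 0.109 in that of *roX2* (SD, n = 3). *ArgRS-m* itself had 13.7, 13.2 and 13.9 CPM in the *roX1 roX2* mutant, against 14.4, 13.8 and 13.7 CPM in wildtype, and these values overlapped. Valine had a ratio of 5.71 ± 0.424 in the *roX1 roX2* mutant, against 7.99 ± 0.862 in wildtype, and serine 4.36 ± 0.109 in the *roX1 roX2* mutant, against 5.49 ± 0.385 in wildtype. No ratio was tested.

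**Figure D4:**
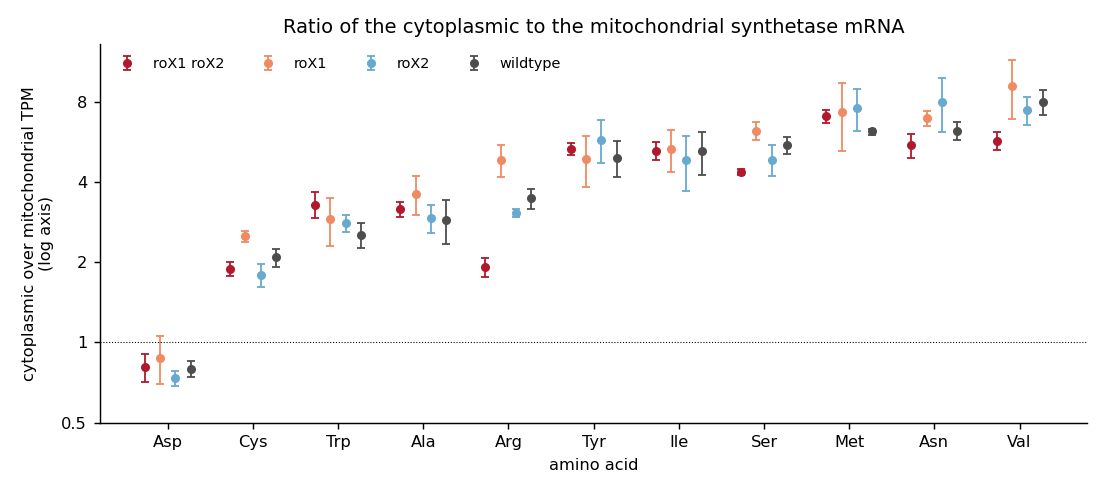
Ratio of cytoplasmic to mitochondrial synthetase TPM (log axis, mean and SD over libraries) for the 11 abbreviations with both endings in the *roX1 roX2* mutant, the *roX1* mutant, the *roX2* mutant and wildtype. The mean arginine ratio is 1.91 in the double mutant, against 3.47 in wildtype, and the mean aspartate ratio is below 1 in all genotypes. In *roX1* mutant replicate 2, *AspRS* had 19.3 TPM, above the 18.0 TPM of *AspRS-m*. An antisense gene shares 63.9% of the exon bases of *AspRS*.

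Loss of *roX1* alone gave another picture. In the *roX1* mutant, 2 of the 32 genes were called, both cytoplasmic, autosomal and higher than in wildtype: *AlaRS*, for alanine, and *GluProRS*. Of all genes tested 0.751% were called higher in this comparison and 1.32% in either direction. The log2 fold change was above 0 in 31 of the 32 synthetase genes, against 52.1% of all genes tested. Its median was 0.39 over the 14 cytoplasmic autosomal genes, 0.27 over the 15 mitochondrial genes and 0.20 over the 3 X-linked genes, with the same signs under both other scalings, beside 0.03 over all major autosome genes and -0.04 over all X genes. *ArgRS-m* was the exception, at -0.16 (SE 0.10). *AlaRS* (FBgn0027094, 2L, 8378262 to 8381764, minus strand) had 89.6, 87.0, 115 and 99.2 CPM in the *roX1* mutant, against 73.7, 57.8 and 59.3 CPM in wildtype. All *roX1* mutant libraries lay above all wildtype libraries, with a log2 fold change of 0.62 (SE 0.13, adjusted p = 0.0398, edgeR). *GluProRS* (FBgn0005674, 3R, 23952136 to 23958391, minus strand) had 150.0, 140.1, 166 and 147 CPM in the *roX1* mutant, against 98.5, 93.7 and 87.1 CPM in wildtype. It had the largest rise of the 32 genes, with a log2 fold change of 0.69 (SE 0.14, adjusted p = 0.0400, edgeR).

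Further genes lay on the same side without passing the test. In 11 of the 32 genes every *roX1* mutant library was above every wildtype library, which held for 8.57% of all genes tested. Among them were *AsnRS* (0.45, adjusted p = 0.0934, edgeR), *GlyRS* (0.49, adjusted p = 0.0938), *ValRS* (0.44, adjusted p = 0.101), *MetRS* (0.39, adjusted p = 0.112) and *IleRS* (0.38, adjusted p = 0.126), given as log2 fold changes. An unadjusted p under 0.05 was reached by 11 of the 14 cytoplasmic autosomal genes, 1 of the 3 X-linked genes and 0 of the 15 mitochondrial genes, against 2339 of all 13975 genes.

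The libraries of the *roX1* mutant were not alike in these genes. Replicates 3 and 4 were both above replicates 1 and 2 in 28 of the 32 genes, in 15 of 15 mitochondrial and 13 of 17 cytoplasmic ones, and in 31.2% of all genes tested. The exceptions were *AspRS*, *GluProRS*, *TyrRS* and *ValRS*. The median over the mitochondrial genes relative to the wildtype mean was -0.03, -0.06, 0.59 and 0.44 in *roX1* mutant replicates 1 to 4 (log2 scale), against 0.05, -0.02 and -0.02 in wildtype. The mitochondrial genes were near wildtype in replicates 1 and 2 and higher in replicates 3 and 4. The cytoplasmic autosomal genes had medians of 0.30, 0.25, 0.58 and 0.45 in the same *roX1* mutant libraries, above the wildtype values in all of them. *MetRS-m* had 7.49, 8.16, 16.9 and 13.9 CPM in the *roX1* mutant, against 9.86, 9.61 and 9.36 CPM in wildtype, and *AlaRS-m* had 20.9, 21.4, 36.1 and 31.8 CPM in the *roX1* mutant, against 20.8, 23.1 and 21.6 CPM in wildtype. In *MetRS-m* replicates 1 and 2 lay below the wildtype libraries and in *AlaRS-m* within their range, while replicates 3 and 4 were above them in both genes. These are the libraries that the first component and the cuticle genes set apart, and the part of that split in the level of the synthetase genes was not tested.

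**Figure D5:**
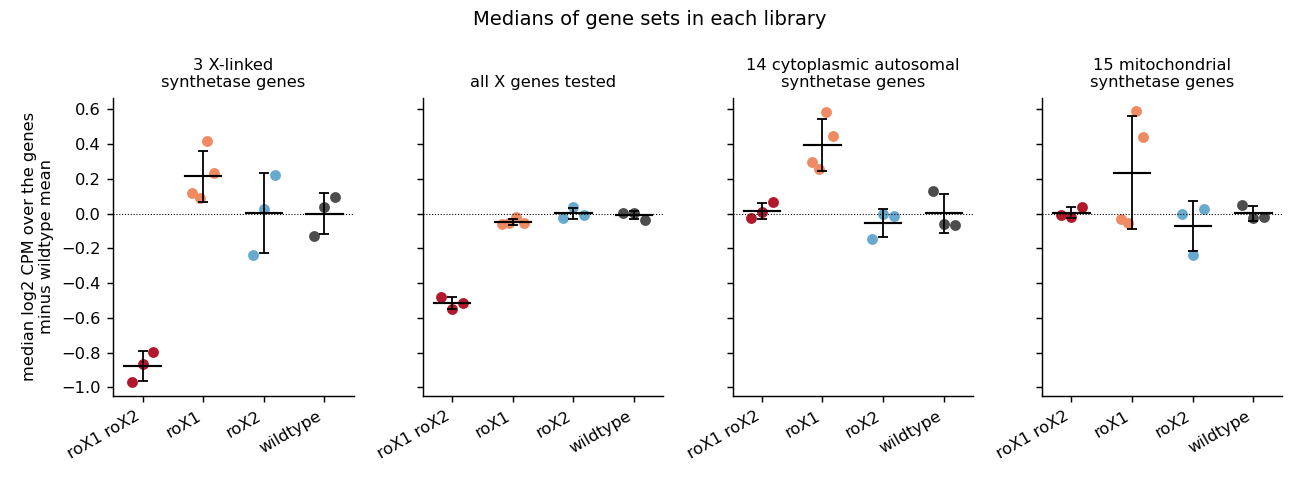
Median over gene sets of log2 CPM minus the gene's wildtype mean in each library (points), with mean and SD per genotype, for the 3 X-linked, 14 cytoplasmic autosomal and 15 mitochondrial synthetase genes and all X genes tested. The X-linked synthetase genes lie between -0.97 and -0.80 in the double mutant, and the mitochondrial genes split into a low and a high pair of libraries in the *roX1* mutant.

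Both calls in the *roX1* mutant depended on single libraries. No gene was called without wildtype replicate 3, without wildtype replicate 4, or without any 1 of the *roX1* mutant libraries. Same-numbered *roX1* mutant and wildtype libraries correlated in their deviations, about as much as unlike-numbered libraries on the same side of the first component did, and with the replicate number as a block *GluProRS* was called (log2 fold change 0.77, adjusted p = 0.0186, edgeR) and *AlaRS* was not (0.65, adjusted p = 0.0548). Without the 4 libraries set apart 6 genes were called, among them *AlaRS* and *AlaRS-m* but not *GluProRS*.

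Loss of *roX2* alone moved none of these genes past the threshold. In the *roX2* mutant, 0 of the 32 genes were called by edgeR and 0 by DESeq2, 1 had an unadjusted p under 0.05 in edgeR, and 0.351% of all genes tested were called. The median log2 fold change was -0.11 over the cytoplasmic autosomal genes, -0.06 over the mitochondrial genes and -0.01 over the X-linked genes. The gene with the smallest p was *CysRS*, for cysteine, with 24.4, 21.1 and 23.5 CPM in the *roX2* mutant, against 34.6, 25.0 and 25.2 CPM in wildtype. Its libraries did not overlap, and it had a log2 fold change of -0.30 (SE 0.13, adjusted p = 0.450, edgeR). *ArgRS* had 31.8, 28.6 and 35.1 CPM in the *roX2* mutant, overlapping the wildtype libraries, with a log2 fold change of -0.24 (SE 0.15, adjusted p = 0.613, edgeR). *HisRS*, with 65.0, 76.1 and 80.1 CPM, and *LysRS*, with 78.4, 98.5 and 113 CPM in the *roX2* mutant, overlapped wildtype too, with log2 fold changes of 0.18 (SE 0.12) and -0.01 (SE 0.16). The range over the 32 genes was -0.30 to 0.23, with standard errors of 0.11 to 0.27.

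Compared with the *roX2* mutant, the *roX1 roX2* mutant differed in the same 3 X-linked genes, all lower, and in no autosomal gene. Here 28.1% of X genes and 5.44% of all genes were called lower, and 7.67% of all genes in either direction. *LysRS* had a log2 fold change of -0.91 (SE 0.16, adjusted p = 0.00882, edgeR), *HisRS* -0.64 (SE 0.12, adjusted p = 0.0132) and *ArgRS* -0.66 (SE 0.15, adjusted p = 0.0238). Every double mutant library was below every *roX2* mutant library in each of them. The calls were lost in a fit of these genotypes alone, and leaving out 1 library left 1 call without *roX2* mutant replicate 4 and 0 without double mutant replicate 2 or 3. The median over the autosomal synthetase genes was 0.07, or -0.03 with the autosomal TMM factors, which turned the split of calls over all genes to 145 higher and 1023 lower, against 312 higher and 760 lower with TMM over all genes.

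Compared with the *roX1* mutant, the *roX1 roX2* mutant was lower in 12 of the 32 genes and higher in none. These were the 3 X-linked genes and 9 of the 14 cytoplasmic autosomal genes, while 0 of the 15 mitochondrial genes were called (edgeR; 2 with an unadjusted p under 0.05; DESeq2 called 1, *GluRS-m*). Of all genes tested 18.0% were called and 11.6% were called lower, with 35.2% of X genes and 7.17% of major autosome genes. *ArgRS* had 18.5, 20.6 and 21.5 CPM in the *roX1 roX2* mutant, against 41.7, 40.0, 56.5 and 49.2 CPM in the *roX1* mutant, with a log2 fold change of -1.22 (SE 0.14, adjusted p = 0.000868, edgeR). *LysRS* had 102, 103, 125 and 113 CPM and *HisRS* 70.9, 67.2, 86.9 and 76.0 CPM in the *roX1* mutant, with log2 fold changes of -1.11 (adjusted p = 0.00154) and -0.67 (adjusted p = 0.00416, edgeR) in the double mutant. In each called autosomal gene all double mutant libraries lay below all *roX1* mutant libraries, while none of them was called between the double mutant and wildtype. In all, 11 of the 29 autosomal genes lay below without overlap, beside 14.2% of all major autosome genes.

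*GluProRS* led the autosomal genes, with 72.7, 86.8 and 85.6 CPM in the *roX1 roX2* mutant, against 150.0, 140.1, 166 and 147 CPM in the *roX1* mutant and a log2 fold change of -0.88 (SE 0.14, adjusted p = 0.00321, edgeR). *AlaRS* had 62.6, 64.0 and 65.2 CPM in the *roX1 roX2* mutant, against 89.6, 87.0, 115 and 99.2 CPM in the *roX1* mutant, with a log2 fold change of -0.61 (SE 0.13, adjusted p = 0.00915, edgeR). *SerRS*, for serine, had 59.7, 55.0 and 66.98 CPM in the *roX1 roX2* mutant, against 88.0, 83.5, 118 and 91.3 CPM in the *roX1* mutant, with a log2 fold change of -0.65 (SE 0.15, adjusted p = 0.0142, edgeR). These 3 genes fell without overlap, and the next were smaller differences in genes for threonine and valine. *ThrRS* had 97.5, 96.2 and 114 CPM in the *roX1 roX2* mutant, against 131, 127, 162 and 149 CPM in the *roX1* mutant, with a log2 fold change of -0.47 (SE 0.12, adjusted p = 0.0242, edgeR). *ValRS* had 50.7, 53.6 and 56.7 CPM in the *roX1 roX2* mutant, against 72.8, 72.3, 80.6 and 66.7 CPM in the *roX1* mutant, with a log2 fold change of -0.45 (SE 0.12, adjusted p = 0.0280, edgeR). *GlyRS*, *AsnRS*, *MetRS* and *CysRS* were called with log2 fold changes between -0.48 and -0.39 (adjusted p between 0.0285 and 0.0360, edgeR). The mitochondrial genes had a median of -0.21, with *GluRS-m* lowest at -0.61 (adjusted p = 0.0918, edgeR) and *ValRS-m* highest at 0.17 (adjusted p = 0.553). This count depended on the libraries too: it was 6 without *roX1* mutant replicate 3, 7 without *roX1* mutant replicate 4, 4 without double mutant replicate 2, 5 without double mutant replicate 3 and 7 without double mutant replicate 4. Without the 4 libraries set apart it was 19, of which 7 were mitochondrial. The count over all genes (2519) moved as well, to 2834 without those 4 libraries. With 1 library left out it ran between 804 without double mutant replicate 2 and 2090 without *roX1* mutant replicate 3. *ArgRS*, *LysRS*, *HisRS* and *GluProRS* were called in all 16 alternatives.

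The difference between losing *roX1* in the presence and in the absence of *roX2* was tested directly, as the log2 fold change of the *roX1 roX2* mutant over the *roX2* mutant minus that of the *roX1* mutant over wildtype. It was called in 3 of the 32 genes, again the 3 X-linked ones and all lower, while 2.35% of all genes and 9.10% of X genes were called lower, and 3.01% of all genes in either direction. With 1 library left out the count over all genes (420) ran between 73 without double mutant replicate 3 and 1401 without *roX2* mutant replicate 3. The median difference was -0.97 over the 3 X-linked synthetase genes, against -0.52 over all X genes. *LysRS* had a difference of -1.10 (SE 0.22, adjusted p = 0.0258), *ArgRS* of -0.97 (SE 0.20, adjusted p = 0.0319) and *HisRS* of -0.84 (SE 0.17, adjusted p = 0.0266, edgeR). In each gene the log2 fold change was above 0 in the *roX1* mutant (0.19 for *LysRS*, 0.32 for *ArgRS* and 0.20 for *HisRS*, none of them called) and below 0 in the double mutant. *GluProRS* (-0.78, adjusted p = 0.0666) and *AsnRS* (-0.62, adjusted p = 0.0800, edgeR) came next without passing, but both were called with DESeq2 and with TMM over major autosome genes. No gene was called without wildtype replicate 3 or 4, without *roX2* mutant replicate 4, or without any 1 of the double mutant libraries. Without the 4 libraries set apart the calls of *LysRS* and *HisRS* were lost and that of *ArgRS* was kept. In that setting the calls were not limited to the X-linked synthetase genes. Strain differences beyond the *roX* alleles cannot be told apart from the loss of *roX* RNA in this contrast.

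Genes that work with the synthetases were taken from 3 lists, and 9 genes of each list were tested. The listed symbols *GatC*, *eEF1alpha1*, *mEFG2* and *Gcn1* were not found among the tested genes, so the lists are not complete. None of the tested genes was called in the *roX1* mutant or the *roX2* mutant against wildtype by edgeR. Of the partners of tRNA charging, *alpha-PheRS*, the X-linked subunit of the cytoplasmic phenylalanine enzyme, was lower in the *roX1 roX2* mutant, at 18.1, 16.8 and 20.2 CPM, against 36.3, 31.4 and 36.6 CPM in wildtype, with a log2 fold change of -0.92 (SE 0.14, adjusted p = 0.00458, edgeR). Its partner *beta-PheRS*, on 3R, had 29.2, 27.6 and 30.03 CPM in the *roX1 roX2* mutant, against 38.0, 28.1 and 29.99 CPM in wildtype, with a log2 fold change of -0.14 (SE 0.15, adjusted p = 0.596, edgeR). Both genes code for parts of the same enzyme, and only the X-linked one was called. The difference between the double mutant over the *roX2* mutant and the *roX1* mutant over wildtype was -1.14 for *alpha-PheRS* (SE 0.20, adjusted p = 0.0161, edgeR). *GatA*, which in bacteria and mitochondria is part of the amidotransferase that makes glutaminyl-tRNA, was higher, with 19.0, 18.2 and 20.6 CPM in the *roX1 roX2* mutant, against 13.02, 12.96 and 13.8 CPM in wildtype and a log2 fold change of 0.54 (SE 0.14, adjusted p = 0.0339, edgeR). *beta-PheRS* was lower in the *roX1 roX2* mutant than in the *roX1* mutant (-0.61, adjusted p = 0.0154, edgeR), and the other 6 partners (*AIMP1*, *AIMP2*, *AIMP3*, *Dtd*, *GatB* and *Slimp*) were called in no comparison.

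Among 9 factors that deliver charged tRNA or move the ribosome, none was called in the *roX1 roX2* mutant against wildtype by edgeR. *eEF1delta*, a subunit of the exchange factor for eEF1alpha, was lower in the *roX1 roX2* mutant than in the *roX1* mutant (-0.95, SE 0.22, adjusted p = 0.0152, edgeR), and *mEFTu2*, a mitochondrial elongation factor, was lower in the *roX1 roX2* mutant than in the *roX2* mutant (-0.61, SE 0.12, adjusted p = 0.0162, edgeR). Among 9 genes of the response to uncharged tRNA, only *eIF2alpha*, the X-linked subunit of the initiation factor that the kinase Gcn2 phosphorylates, was called against wildtype. It had 78.9, 76.9 and 94.6 CPM in the *roX1 roX2* mutant, against 112, 138 and 146 CPM in wildtype, with a log2 fold change of -0.66 (SE 0.13, adjusted p = 0.0105, edgeR). Compared with the *roX1* mutant, *eIF2alpha* (-0.92, adjusted p = 0.00131) and its autosomal partner *eIF2beta* (-0.60, adjusted p = 0.0274, edgeR) were both lower in the double mutant. *Gcn2* itself (0.47, adjusted p = 0.0896), *crc*, the fly ATF4 (0.08, adjusted p = 0.784), *Thor*, the 4E-BP gene (-0.03, adjusted p = 0.940), and *AsnS*, for asparagine synthetase (-0.59, adjusted p = 0.323, edgeR), did not pass in the *roX1 roX2* mutant.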

How the data were processed

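RNA-seq libraries of whole first instar male larvae were compared between 4 genotypes, grouped by the sample labels (13 libraries, polyadenylated RNA, Illumina TruSeq v2). Per the labels and the methods, the authors made reads with bcl2fastq 1.8.4 and CASAVA, aligned them with STAR 2.5.1b to *D. melanogaster* release 6.09 and deposited whole-number counts per gene from HTSeq 0.6.1, without normalization. DESeq2 is also named in the processing notes. Reads not assigned to a gene (10.3 to 23.8% per library) were left out of library sizes and tests. Identifiers were paired with symbols and exons of annotation BDGP6.54, in which 247 of the 17476 were not found.

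The 13975 genes whose counts reached 20 over all libraries together entered a single edgeR 4.0.16 quasi-likelihood fit of all 13 libraries with the genotype as the only term and TMM factors (R 4.3.3), and p-values were adjusted over all 13975 genes (Benjamini-Hochberg, 0.05). CPM are TMM-normalized and compare a gene between libraries, with a prior count of 2 on the log2 scale. The standard errors (SE) given with edgeR are the absolute log2 fold change divided by the square root of the F statistic of the quasi-likelihood test. TPM, over summed exon length, compare genes. Sums of marker genes and shares are descriptions. Alternatives were DESeq2 1.42.0, DESeq2 size factors, TMM over genes of the 4 major autosome arms, other count filters, a replicate block, the side of the first principal component as a covariate or left out, a fit of the compared genotypes alone, and each library left out. The fits were tested on simulated counts.

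Members are the genes whose symbol is an amino acid abbreviation followed by RS or RS-m. Library values are given for the X-linked members, for up to 8 members past the threshold by smallest p in each comparison, and for the 2 highest and 2 lowest cytoplasmic and mitochondrial members by wildtype TPM. *ValRS-m*, *ArgRS-m*, *MetRS-m*, *AlaRS-m* and *CysRS* were given further library values after these were seen. Members and lists were chosen with earlier results of these data known. Deviations from the genotype means correlated between same-numbered libraries of the *roX1* mutant and wildtype (r between 0.44 and 0.59 across genes, 3 pairs) and of the *roX1 roX2* mutant and the *roX2* mutant (r between 0.17 and 0.27, 3 pairs), and not in every pair of the other groups. In the *roX1* mutant and wildtype, unlike-numbered libraries on the same side of the first principal component correlated about as much (0.58 for *roX1* mutant replicate 2 with wildtype replicate 1, 0.44 for replicate 4 with 3 and 0.50 for replicate 3 with 4), so that the number and the side cannot be told apart there. Block values are given for all comparisons, also between groups whose same-numbered libraries did not correlate in every pair. With 45620194 to 83954893 counts on genes per library, the spread between libraries and not counting error limits the precision.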

Additional observations from a re-analysis of the deposited data

Results flagged for a closer look

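The interaction between losing *roX1* and the presence of *roX2* was called in 3 synthetase genes, all X-linked. The difference of the log2 fold changes, the *roX1 roX2* mutant over the *roX2* mutant minus the *roX1* mutant over wildtype, was -1.10 for *LysRS*, -0.97 for *ArgRS* and -0.84 for *HisRS*, each called by the interaction test in edgeR. In all 3 genes no call was left without wildtype replicate 3 or 4, *roX2* mutant replicate 4 or any double mutant library. By its label the *roX2* mutant has cho[2] and v[1] in place of w[1118], while the other genotypes have w[1118]. Only the double mutant had mothers with a balancer X chromosome. Such strain differences cannot be told apart from the loss of *roX* RNA in this contrast.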

How the results depend on the processing

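No called value changed sign, and *ArgRS* and *LysRS* were called in the *roX1 roX2* mutant against wildtype in all 15 alternatives. In the *roX1* mutant against wildtype the count of called synthetase genes (2) was 6 with DESeq2, 0 with DESeq2 size factors in edgeR, 1 with TMM over major autosome genes, 1 with a minimum mean of 10 counts, 1 in a fit of the compared genotypes alone, 6 without the 4 libraries set apart by the first component, and 0 to 2 with 1 library left out. The count in the *roX1 roX2* mutant against the *roX1* mutant (12) was 19 without those 4 libraries and 4 to 12 with 1 library left out. Against the *roX2* mutant (3) it was 0 in a fit of the compared genotypes alone and 0 to 3 with 1 library left out. For the interaction (3) it was 5 with DESeq2 and 5 with TMM over major autosome genes (*GluProRS* and *AsnRS* added in both). It was 0 to 3 with 1 library left out, and no fit of fewer genotypes exists, since all 4 genotypes enter it. Without those 4 libraries the interaction kept *ArgRS*, lost *LysRS* and *HisRS*, and its calls were not limited to X-linked genes. Median log2 fold changes moved for autosomal genes in the *roX1* mutant (0.56 without those 4 libraries, 0.33 otherwise), for X-linked genes in the *roX2* mutant (-0.25 without them, -0.01 otherwise), for X-linked genes in the double mutant against wildtype (mean -0.76, median -0.90), and for autosomal genes in the double mutant against wildtype (-0.061 with TMM over major autosome genes). Against the *roX2* mutant the autosomal median (0.07) was -0.033 with TMM over major autosome genes, 0.14 without those 4 libraries and 3.8e-05 to 0.12 with 1 library left out. The causes were not tested.

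With the replicate number as a block, 1 gene was called in the *roX1* mutant, 2 in the *roX1 roX2* mutant against wildtype (*HisRS* lost, adjusted p = 0.0533, edgeR), 9 against the *roX1* mutant, 3 against the *roX2* mutant and 4 in the interaction (*GluProRS* added). Between the *roX1* mutant and wildtype and between the *roX1 roX2* mutant and the *roX2* mutant, the block changed no call other than that of *AlaRS* in the *roX1* mutant.

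Over all genes, DESeq2 called 979, 245, 2215, 1805 and 1503 genes where edgeR called 185 (*roX1* mutant), 49 (*roX2* mutant), 1269 (double mutant), 1072 (double mutant against *roX2* mutant) and 420 (interaction). In the double mutant against the *roX1* mutant DESeq2 called 3733 genes and edgeR 2519. The fit of the compared genotypes alone called 87 genes for *roX1*, 9 for *roX2* and 216 in the double mutant against the *roX2* mutant. Without those 4 libraries 545 genes were called in the *roX1* mutant and 145 in the *roX2* mutant, with the side as a covariate 329 and 80, and with the block 818 in the double mutant and 32 in the *roX2* mutant. With 1 library left out the counts over all genes ran between 61 and 251 (*roX1* mutant), 23 and 59 (*roX2* mutant), 386 and 912 (double mutant), 181 and 2009 (double mutant against *roX2* mutant) and 73 and 1401 (interaction). In the double mutant against the *roX1* mutant they ran between 804 and 2090. TPM taken over the major autosome genes divides by a smaller total, so every value had to rise, and all 128 gene and genotype means moved. Within a library, the order and the ratios of genes do not depend on that total. The longest transcript as the length moved 8 of 128. With 3 or 4 libraries a group, changes of the size of the standard errors were not detectable.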
